A study of Mus musculus with 16 samples.

Results

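The genes described here are 7 members of the Hedgehog signalling pathway, Dhh, Ptch1, Smo, Gli1, Gli2, Gli3 and Hhip, taken by symbol from the 30451 genes of a single-cell RNA-seq table of the mouse testis. All 7 were in the table. Hedgehog ligands are secreted proteins that bind the receptor PTCH1, and bound PTCH1 no longer holds back the membrane protein SMO, which then acts on the GLI transcription factors at the primary cilium. Ptch1, Gli1 and Hhip are themselves classical target genes of the pathway, and PTCH1 and HHIP both bind ligand and so limit its spread. In the testis, Desert hedgehog (DHH) from Sertoli cells is known for its part in the development of Leydig cells and peritubular myoid cells outside the tubules.

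Whole testes of mice at postnatal day 2 were dissociated, and mRNA was counted per droplet by unique molecular identifiers (UMIs) read near the 3′ end. The labels give 8 samples as wild type and 8 as Ddx5 conditional knockout, in which, per the study, Mvh-Cre was used to delete a floxed Ddx5 in germ cells. The mice of the study also carry an Oct4-GFP transgene. The table does not separate the 8 samples of a genotype. Its barcodes carry only suffix 3 or suffix 4, so each genotype is 1 library, no test between genotypes was possible and no p-value is given. The labels put the wild-type samples on lanes 2 and 3 and the knockout samples on lanes 3 and 4, 4 samples on each, and as barcodes carry no sample name, lane and genotype cannot be told apart in the ratios between libraries. No label pairs a suffix with a genotype. Suffix 3 was taken as wild type because suffix 4 holds 5423 barcodes, fewer than the wild-type cells the study kept. The genotype of each library is therefore an inference from cell numbers and not a label. With the filter on cells given below, suffix 4 kept exactly as many cells as the study kept from its knockout, and suffix 3 a single cell more than the study kept from wild type. These numbers set the assignment, and the comparisons between gates do not rest on it. CRE had 20 UMIs in suffix 4 and 0 UMIs in suffix 3. Ddx5 itself, the targeted gene, stood at 1152 CPM (UMIs per 1000000 UMIs of the same cells) in wild-type germ cells and at 1736 CPM in the 12 germ cells of suffix 4. The study, by contrast, reported a marked fall of Ddx5 mRNA in knockout gonocytes sorted at postnatal day 2, by single-cell qRT-PCR. Suffix 4 is called the library labelled Ddx5 knockout, where labelled stands for the assignment made here and not for a label of the samples. Which part of Ddx5 was deleted relative to its 3′ end is not given in the sources used here. Ddx5 in somatic cells was lower in the library labelled Ddx5 knockout, by ratios of 0.943 (0.928 to 0.958) in Sertoli, 0.873 (0.819 to 0.930) in Leydig, 0.879 (0.846 to 0.913) in myoid and 0.896 (0.879 to 0.913) in stroma cells.

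A barcode was kept as a cell if 2000 or more genes had a UMI and no more than 10% of its UMIs were mitochondrial. This left 6329 of 6763 barcodes in wild type and 4950 of 5423 barcodes in the library labelled Ddx5 knockout. The libraries shared 12 barcode sequences. Cells were assigned by gates on a few genes. The Sertoli gate (Amh, at least 3 UMIs) held 2256 and 1635 cells in wild type and the library labelled Ddx5 knockout. The Leydig gate (Cyp11a1, Cyp17a1 and Hsd3b1, at least 20 UMIs together) held 177 and 143 cells, and the peritubular myoid gate (Acta2, at least 5, and Myh11, at least 2) held 764 and 524 cells. The stroma gate (Pdgfra, at least 1, and Amh, at most 2) held 3590 and 3005 cells. The germ gate (at least 3 of Dazl, Ddx4, Mael and Stk31) held 125 wild-type cells but 12 cells of the other library. The gates overlapped: 1152 of 1288 myoid cells were also in the stroma gate, as were 73 Leydig cells, and 39 germ cells and 57 myoid cells were also in the Sertoli gate. Values for cells of a gate alone are therefore given for the comparisons that change with them, although the myoid gate alone held only 54 and 25 cells. Markers not used by the gates followed them, with 7 of 8 Sertoli genes, 5 of 6 Leydig genes, 5 of 6 myoid genes, 7 of 8 stroma genes and 6 of 6 germ genes highest in their own gate in wild type. The Leydig marker Hsd3b6 had 0 UMIs in the 5 gates of wild type, and Clu, a secreted chaperone on the Sertoli list, stood at 2398 CPM in Leydig and 2175 CPM in Sertoli cells. A macrophage gate of 42 and 51 cells, a cell type that should lack most of these genes, served as a measure of free RNA. Doublets were kept, and a doublet caller marked 4.49% of wild-type cells and 5.98% of the others.

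All 7 genes are protein coding and were located on GRCm38, the build of the deposited table. Dhh lies on the minus strand of chr15:98891152-98898540, and its 3′ part, chr15:98891152-98894540, is shared on the same strand with the 5′ part of the longest forms of Rhebl1. How reads of the shared stretch were assigned was not given in the sources used here. Rhebl1 itself stood at 6.68 CPM in wild-type Sertoli cells and at 50.9 CPM in the wild-type germ gate. Ptch1 lies on the minus strand of chr13:63508328-63573598, and Smo on the plus strand of chr6:29735503-29761365. Of the GLI genes, Gli1 is at chr10:127329882-127341974 (minus strand), Gli2 at chr1:118834132-119053619 (minus strand) and Gli3 at chr13:15463235-15730026 (plus strand). Hhip is on the minus strand of chr8:79965851-80058006.

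RefSeq (GRCm38.p6) gave a promoter window for 6 of the 7 genes, all but Gli1. The 250 bases before the start are shown for the ligand gene and for 2 targets of the pathway that are compared throughout, 5′ to 3′ on the strand of the gene. Capitals mark the GC box GGGCGG on either strand, a site of the SP family of factors:
Dhh, chr15:98898541-98898790, minus strand: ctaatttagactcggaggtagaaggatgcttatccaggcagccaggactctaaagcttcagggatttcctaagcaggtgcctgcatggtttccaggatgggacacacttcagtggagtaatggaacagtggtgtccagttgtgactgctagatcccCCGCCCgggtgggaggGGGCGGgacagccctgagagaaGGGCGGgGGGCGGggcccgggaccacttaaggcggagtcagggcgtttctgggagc
Ptch1, chr13:63565736-63565985, minus strand: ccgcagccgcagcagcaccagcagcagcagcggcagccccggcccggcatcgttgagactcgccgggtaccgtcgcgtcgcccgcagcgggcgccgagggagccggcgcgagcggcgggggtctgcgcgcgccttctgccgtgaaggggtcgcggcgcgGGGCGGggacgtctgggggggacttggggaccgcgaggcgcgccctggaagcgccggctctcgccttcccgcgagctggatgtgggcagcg
Hhip, chr8:80058009-80058258, minus strand: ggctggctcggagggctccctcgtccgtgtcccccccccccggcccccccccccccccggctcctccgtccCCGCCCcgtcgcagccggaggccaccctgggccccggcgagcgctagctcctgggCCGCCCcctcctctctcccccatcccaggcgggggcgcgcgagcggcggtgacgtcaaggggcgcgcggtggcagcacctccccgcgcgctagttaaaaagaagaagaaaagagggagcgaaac
The Ptch1 window lies in an intron of the longest annotated form of the gene. GC boxes numbered 4 before Dhh, 1 before Ptch1 and 2 before Hhip, and 32.7% of 32851 windows of this length held at least 1. The GLI consensus GACCACCCA, searched on both strands, was in none of the 6 windows and in 0.225% of all windows, which says only that these letters are not in these stretches.

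The ligand gene Dhh was the gene of Sertoli cells. In wild type it stood at 205.2 CPM in the Sertoli gate (95% counting interval 201 to 210 CPM, 7582 UMIs) and was detected in 91.5% of these cells, with a median of 3 UMIs and up to 21 UMIs per cell. The library labelled Ddx5 knockout had 220.1 CPM (215 to 226 CPM) and Dhh in 94.1% of cells. No Dhh UMI was found in the 34 wild-type cells of the macrophage gate alone, where 3 UMIs would be 6.94 CPM, and the 38 such cells of the other library had 5 UMIs (10.8 CPM). Of all 7797 wild-type Dhh UMIs, 97.2% were in cells of the Sertoli gate, which held 44.6% of all UMIs. All intervals, here and below, are exact 95% intervals and cover counting error only, since cells are not replicates. For ratios of whole gates that share cells, such as stroma and myoid, they are not exact.

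Outside the Sertoli gate, Dhh in wild type read 34.5 CPM in the germ gate, 31.2 CPM in the Leydig gate, 17.2 CPM in the myoid gate and 2.21 CPM in the stroma gate. The Sertoli level was 5.95 times (5.06 to 7.05) that of the germ gate. Much of the rest lay in cells that also met the Sertoli gate. In cells of 1 gate alone Dhh read 2.69 CPM in germ cells and 3.55 CPM in myoid cells, with 6 and 2 UMIs. The summed level of the 8 Sertoli markers moved with it in germ cells, from 1449 CPM in the gate to 168 CPM in the germ gate alone.

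A low Dhh level was also read in Leydig cells. Among the 117 wild-type cells of the Leydig gate alone with 0 Amh UMIs, 38 cells carried Dhh (32.5%), at 26.4 CPM (19.4 to 35.1 CPM), which was 12.5 times (8.38 to 18.6) the level in stroma alone. The other library had Dhh in 17 of 97 such cells, at 14.1 CPM, or 14.1 times (7.74 to 25.5) stroma alone. Against the macrophage gate alone, Dhh in the Leydig gate alone was higher in wild type (49 and 0 UMIs, lower limit of the ratio 2.89), but in the library labelled Ddx5 knockout it could not be separated from that measure of free RNA (27 and 5 UMIs, ratio 1.38, 0.523 to 4.58). Of the macrophage gate alone, 7.89% of cells were called doublets in that library and 0% in wild type. Gata4 stood in these macrophages at 23.9% and 1.19% of its level in Sertoli cells without Pdgfra. The part of mixed droplets in the 5 UMIs was not tested. The Dhh levels of Leydig cells without Amh were 12.1% and 5.85% of those in Sertoli cells without Pdgfra. For comparison, the Sertoli-specific cystatin genes Cst9 and Cst12 stood in the same wild-type Leydig cells at 0.137% and 0.582% of their Sertoli level, the transcription factor genes Sox9 and Wt1 at 0.814% and 2.96%, and Aard at 1.18%. In the library labelled Ddx5 knockout these 5 genes reached at most 1.15% (Aard). Rhox8, a homeobox gene, was at 5.29% and 5.597% in the 2 libraries, close to Dhh in the latter. Gata4 was at 69.5% and 63.8% and Clu at 119% and 95.3%, both of them genes that Leydig cells express. Median depth was 14036 UMIs in these wild-type Leydig cells, and 32.0% of the Leydig gate alone carried Dhh against 1.92% of stroma alone, whose median depth was 9489 UMIs. Thinned to 5000 UMIs per cell, the shares were 13.6% and 1.18%.

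Within the Sertoli gate Dhh was lower in cycling cells, those with at least 2 UMIs of Mki67 and Top2a together. The ratio of cycling to other cells was 0.827 (0.790 to 0.865) in wild type and 0.858 (0.816 to 0.902) in the library labelled Ddx5 knockout.

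**Figure D1:**
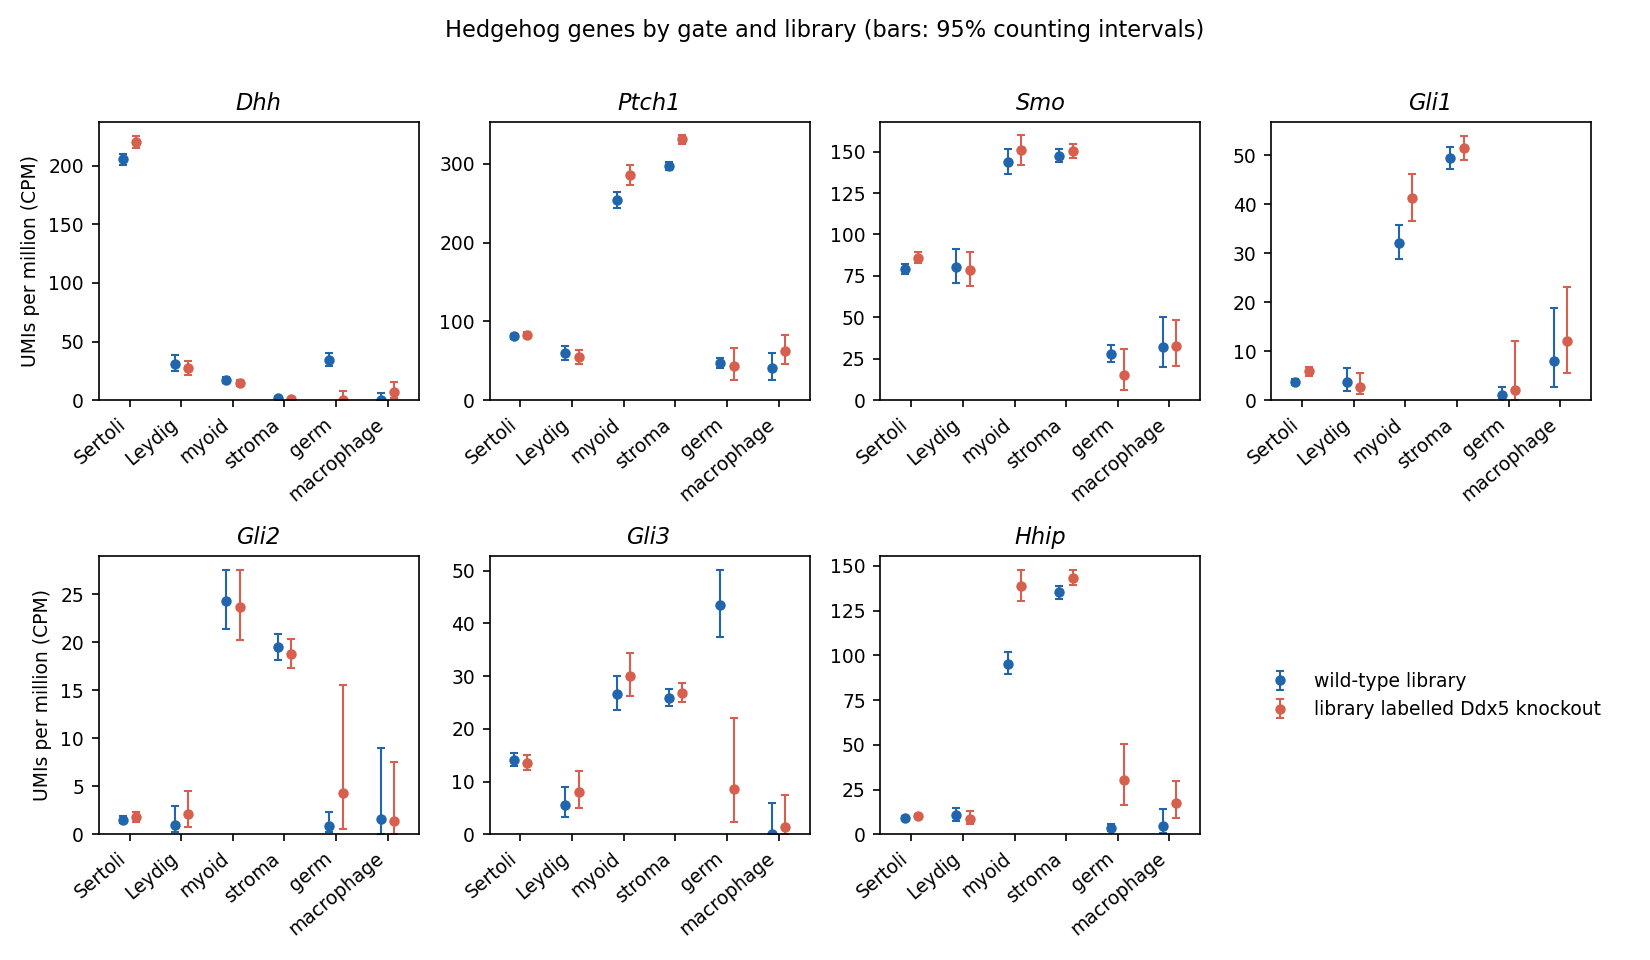
Level of each Hedgehog gene (y axis, UMIs per 1000000, CPM, each panel on its own scale from 0) in the 5 gates and the macrophage gate (x axis) for the wild-type library and the library labelled Ddx5 knockout, with exact 95% counting intervals as bars. Dhh stands at 205.2 and 220.1 CPM in Sertoli cells and below 35 CPM elsewhere, whereas Ptch1, Smo, Gli1, Gli2 and Hhip peak in the myoid and stroma gates.

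Ptch1, the gene of the ligand receptor, was highest outside the tubules. In wild type it stood at 297 CPM (292 to 302 CPM) in stroma and 254 CPM (244 to 264 CPM) in myoid cells, and a ratio of 1.17 (1.12 to 1.22) separated these neighbours. Sertoli cells followed at 81.1 CPM, Leydig cells at 59.8 CPM and germ cells at 46.7 CPM, each below the one before by more than its counting interval. The order was the same in the library labelled Ddx5 knockout, at 331, 285, 82.7, 54.6 and 43.2 CPM, but there Leydig and germ cells could not be separated (ratio 1.27, 0.792 to 2.13). In cells of 1 gate alone, wild-type Leydig and germ cells stood at 35.5 and 29.2 CPM and could not be separated either (ratio 1.22, 0.855 to 1.74). Ptch1 was found in 85.9% of wild-type stroma cells at a median depth of 9838.5 UMIs and in 8.82% of the 34 cells of the macrophage gate alone at a median depth of 11317 UMIs. In the Leydig gate alone, with cells of other gates left out, the level was 35.5 CPM and 31.3 CPM in the 2 libraries, 11.3% and 9.05% of the level in stroma alone. The 8 stroma markers stood there at 0.390% to 10.6% (median 1.05%) and at 0.508% to 10.9% (median 1.36%) of their level in stroma alone. Ptch1 lay above these medians in both libraries. It lay little above the highest marker, Nr2f2, in wild type and below the highest, Col3a1, in the library labelled Ddx5 knockout. How much of this Ptch1 was free RNA was not tested.

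Smo, the gene of the signal transducer, was read at 10 CPM or more in each of the 5 gates of both libraries. Stroma and myoid cells stood at 148 and 144 CPM in wild type and could not be separated by counting error (ratio 1.02, 0.967 to 1.09). Leydig cells at 80.7 CPM and Sertoli cells at 79.1 CPM likewise could not be separated (ratio 1.02, 0.891 to 1.16). Germ cells were lowest at 27.8 CPM, and at 10.3 CPM (6.54 to 15.5 CPM) in the germ gate alone. The library labelled Ddx5 knockout gave 150, 151, 78.6, 85.9 and 15.1 CPM in stroma, myoid, Leydig, Sertoli and germ cells. The germ value there rests on 7 UMIs. The macrophage gate, the measure of free RNA, read 32.4 and 32.5 CPM of Smo in the 2 libraries, above both values of the germ gate. The macrophage gate alone read 20.8 and 8.62 CPM, on 9 and 4 UMIs. The germ gate alone was below this in wild type but above it, at 20.3 CPM on 6 UMIs, in the other library. Smo in germ cells was thus not shown to exceed free RNA.

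The 3 GLI genes divided differently among the gates. Gli1, an activator and the pathway's usual readout, stood at 49.5 CPM (47.3 to 51.7 CPM) in wild-type stroma, 32.2 CPM in myoid cells and at most 3.65 CPM in Sertoli, Leydig and germ cells. The stroma level was 1.54 times (1.37 to 1.73) the myoid level. In the library labelled Ddx5 knockout the values were 51.6 CPM in stroma, 41.3 CPM in myoid cells and 5.91 CPM in Sertoli cells. In cells of 1 gate alone stroma and myoid cells could not be separated, at 55.6 and 42.6 CPM in wild type (ratio 1.30, 0.873 to 2.04) and at 55.6 and 55.8 CPM in the library labelled Ddx5 knockout. Leydig cells alone had 2 Gli1 UMIs in wild type. Gli1 was thus a gene of stroma and myoid cells but not of Leydig cells, with 89.9% of its 2144 wild-type UMIs in the stroma gate.

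Gli2, whose product is mainly an activator, was higher in myoid cells (24.3 CPM, 21.4 to 27.6 CPM) than in stroma (19.5 CPM, 18.1 to 20.9 CPM) in wild type, by a ratio of 1.25 (1.08 to 1.44). The library labelled Ddx5 knockout gave 23.7 and 18.8 CPM and a ratio of 1.26 (1.06 to 1.497). The interval included 1 in wild type with stricter gates (1.18, 0.968 to 1.43) and in cells of 1 gate alone (1.66, 0.959 to 2.68), where myoid cells had 17 UMIs. In Sertoli, Leydig and germ cells Gli2 had 56, 3 and 4 UMIs in wild type, or at most 1.52 CPM.

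Gli3, whose product is mainly a repressor, was the only member whose highest gate in wild type was the germ gate. Wild-type germ cells stood at 43.5 CPM (37.5 to 50.2 CPM), 1.63 times (1.35 to 1.98) the 26.6 CPM of myoid cells, and stroma at 25.9 CPM. With germ cells of other gates left out the level was 52.5 CPM (43.4 to 62.9 CPM), and 52 of these 67 cells (77.6%) carried Gli3. This was 2.03 times (1.66 to 2.47) the level in stroma alone, but myoid cells alone stood at 35.5 CPM with 20 UMIs and could not be separated from germ cells (ratio 1.48, 0.915 to 2.51). The germ and myoid gates could also not be separated when cells needed 3000 genes and no more than 5% mitochondrial UMIs (1.29, 0.928 to 1.76) or thinned to 5000 UMIs (1.47, 0.888 to 2.33). Among the 54 germ cells of them with 0 Amh and 0 Pdgfra UMIs, 41 carried Gli3, at 50.4 CPM. Germ cells were the deepest cells, with a median of 33277 UMIs, and thinned to 5000 UMIs 22.4% of the germ gate alone and 11.2% of stroma alone carried Gli3. Sertoli cells stood at 14.1 CPM and Leydig cells at 5.64 CPM, and the macrophage gate had 0 Gli3 UMIs in wild type.

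Hhip, the gene of a ligand-binding inhibitor, followed Gli1. It stood at 135 CPM (132 to 139 CPM) in wild-type stroma and 95.5 CPM (89.5 to 102 CPM) in myoid cells, a ratio of 1.42 (1.32 to 1.52). Leydig, Sertoli and germ cells read 10.6, 9.23 and 3.70 CPM. In cells of 1 gate alone the wild-type levels were 149 CPM in stroma and 62.1 CPM in myoid cells (ratio 2.39, 1.72 to 3.44), and 2.09 CPM in Leydig cells. In the library labelled Ddx5 knockout stroma stood at 143 CPM and myoid cells at 139 CPM, and those 2 gates could not be separated (ratio 1.03, 0.962 to 1.11). Hhip was found in 56.9% of wild-type stroma cells and in none of the 34 cells of the macrophage gate alone.

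Among 18264 genes compared over the 5 gates in wild type, 29.2% had a highest gate over 2-fold above the next. Of the 7 Hedgehog genes, 1 did, Dhh, and the 6 others shared their level between neighbouring gates, for 5 of them the stroma and myoid gates, in either order, whose cells overlap.

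Cells of the Sertoli gate carried receptor and transducer but little of the other targets. Pdgfra UMIs were found in 277 wild-type cells of this gate, and the doublet caller marked 73.3% of these cells against 0.606% of the 1979 Sertoli cells without Pdgfra. Median depth was 22528 UMIs with and 13110 UMIs without Pdgfra. In Sertoli cells without Pdgfra, a subset chosen after the data were seen, Gli1 read 0.696 CPM (21 UMIs) against 3.65 CPM in the whole gate, Hhip 0.928 CPM (28 UMIs) against 9.23 CPM and Gli2 0.398 CPM (12 UMIs) against 1.52 CPM. Ptch1 stood at 64.4 CPM (61.6 to 67.3 CPM), Smo 73.2 CPM and Gli3 12.2 CPM.

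These values were set against free RNA and mixed droplets by the 8 stroma markers, collagens and other matrix and stroma genes that Sertoli cells should lack. In wild-type Sertoli cells without Pdgfra the markers stood at between 0.570% (Ogn) and 1.06% (Dlk1) of their level in stroma alone. Hhip at 0.624% lay within that range, and Gli1 at 1.25% and Gli2 at 2.19% lay above it. The counting interval of Gli1 (21 UMIs, 0.431 to 1.06 CPM) reaches into the range, however. Ptch1 stood at 20.4% of the stroma level, Gli3 at 47.1% and Smo at 48.7%. In the library labelled Ddx5 knockout the markers ranged from 0.606% to 1.18%, with Hhip at 0.341%, Gli2 at 1.52% and Gli1 at 1.96%, and with Ptch1 at 17.0%, Gli3 at 43.3% and Smo at 52.2%. Stroma alone was thus 4.89 times (4.66 to 5.14) above these Sertoli cells in Ptch1, 79.9 times (52.1 to 129) in Gli1 and 160 times (111 to 241) in Hhip. Per Ptch1 UMI, wild-type Sertoli cells without Pdgfra held 0.0108 Gli1 UMIs and stroma alone held 0.176 Gli1 UMIs.

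**Figure D2:**
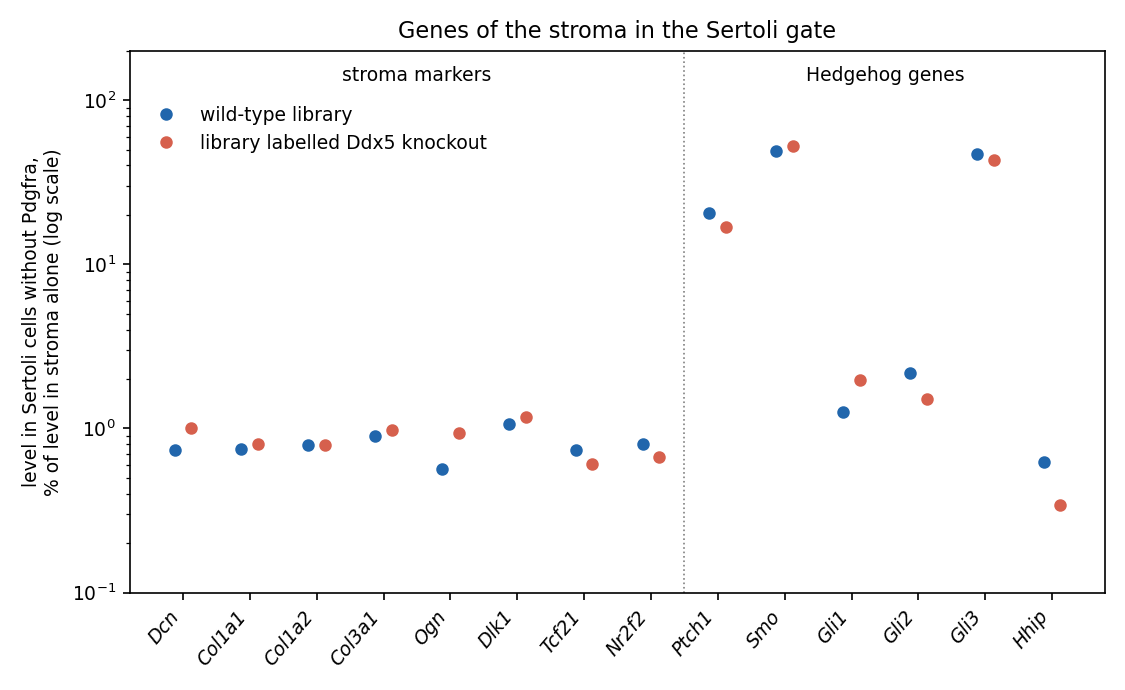
Level in Sertoli cells without Pdgfra as a percent of the level in cells of the stroma gate alone (y axis, log scale) for 8 stroma markers and 6 Hedgehog genes (x axis), 1 point per library. In wild type the markers lie between 0.570% and 1.06%, Gli1, Gli2 and Hhip lie at 2.19% or lower, and Ptch1, Gli3 and Smo lie at 20.4%, 47.1% and 48.7%.

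Within the stroma gate, cells with Tbata and cells with the matrix genes Lum or Dpt differed more in Ptch1 and Hhip than in Gli1. The 798 wild-type cells with Tbata alone stood at 383 CPM of Ptch1 and the 938 cells with Lum or Dpt alone at 247 CPM, a ratio of 1.55 (1.47 to 1.64). Hhip stood at 193 and 100 CPM, a ratio of 1.92 (1.77 to 2.08). Ratios in the library labelled Ddx5 knockout were 1.69 (1.60 to 1.78) for Ptch1 and 2.44 (2.24 to 2.65) for Hhip, so both targets were higher in the Tbata cells of either library.

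Gli1 in the same cells stood at 51.0 and 55.0 CPM in wild type, a ratio of 0.927 (0.816 to 1.05), and the ratio was 1.10 (0.964 to 1.26) in the library labelled Ddx5 knockout. The intervals for Gli1 thus include 1 and end below those of Ptch1 and Hhip. Gli3 was lower in the Tbata cells, with ratios of 0.828 (0.691 to 0.991) and 0.722 (0.587 to 0.883), and Gli2 had ratios of 1.29 (1.04 to 1.61) and 1.24 (0.987 to 1.56). Smo differed little, at 1.14 (1.05 to 1.23) and 0.993 (0.915 to 1.08). The 385 wild-type cells with both marks read 336 CPM of Ptch1 and 183 CPM of Hhip, between or near the Tbata cells, and the 1469 cells with neither read 266 and 109 CPM.

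Only 55 wild-type and 25 other myoid cells had no Pdgfra UMI. Their Ptch1 level, 259 CPM (219 to 304 CPM) in wild type, could not be separated from that of the 709 myoid cells with Pdgfra (ratio 0.978, 0.829 to 1.16). Hhip was 60.5 CPM (42.1 to 84.1 CPM) in these wild-type cells, below the 97.6 CPM of myoid cells with Pdgfra, but 176 CPM (128 to 236 CPM) in their counterparts from the library labelled Ddx5 knockout, where it could not be separated from the 138 CPM with Pdgfra (ratio of with to without 0.785, 0.580 to 1.09).

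**Figure D3:**
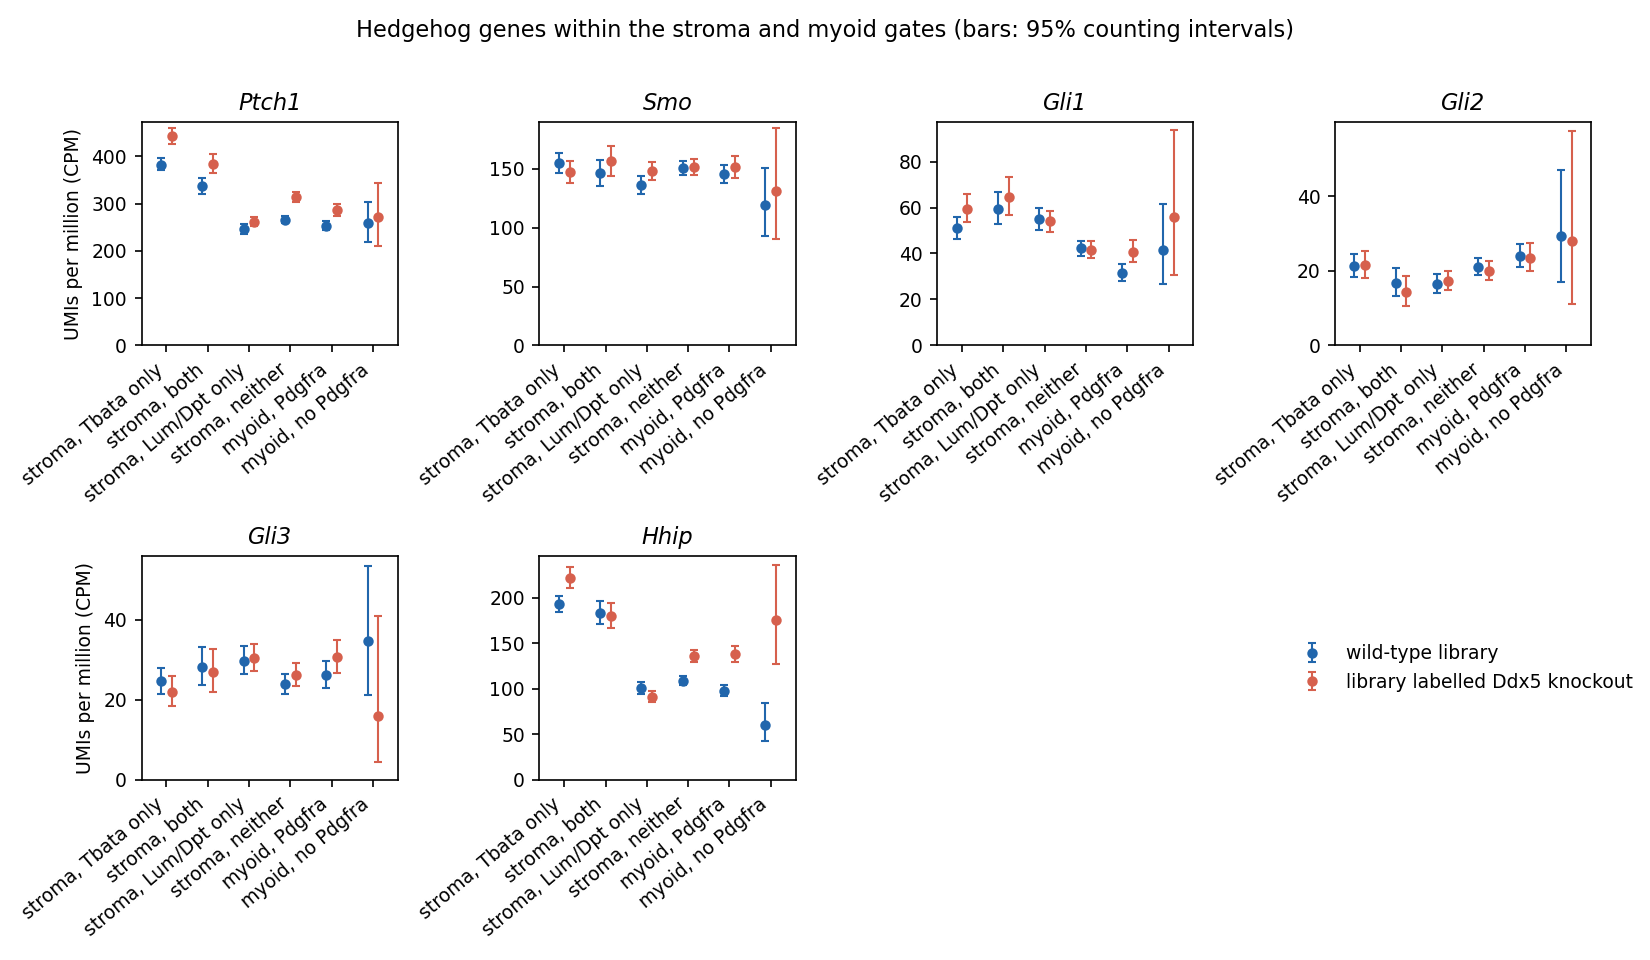
Level (y axis, CPM, each panel on its own scale from 0) of 6 Hedgehog genes in stroma cells split by Tbata and by Lum or Dpt, and in myoid cells with and without Pdgfra (x axis), for both libraries with exact 95% counting intervals. Ptch1 and Hhip are highest in the Tbata cells, at 383 and 193 CPM in wild type, while Gli1 is at 51.0 and 55.0 CPM in the Tbata and the Lum or Dpt cells.

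Gli3 was higher in cycling cells. The ratio of cycling to other cells was 1.79 (1.48 to 2.17) in wild-type Sertoli cells, 1.68 (1.48 to 1.91) in stroma and 1.27 (0.991 to 1.63) in myoid cells. The library labelled Ddx5 knockout gave 1.70 (1.36 to 2.13), 1.84 (1.61 to 2.11) and 1.65 (1.25 to 2.17), so that 5 of 6 intervals lay above 1. Hhip in stroma was also higher in cycling cells (1.28, 1.21 to 1.35, and 1.15, 1.08 to 1.22), whereas the intervals of Ptch1 in stroma included 1 (0.981, 0.942 to 1.02, and 1.01, 0.973 to 1.06). Cycling wild-type Sertoli cells had a median of 18056.5 UMIs against 11946.5 UMIs in the others, with 11.7% and 7.77% called doublets. In wild-type stroma the medians were 14200 and 9331.5 UMIs, with 4.43% and 1.05% called doublets. In wild-type myoid cells they were 15510 and 10205 UMIs, with 15.8% and 4.70% called doublets. The part of depth and doublets in the ratios was not tested.

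Within single stroma cells, cells with Gli1 carried Ptch1 and Hhip at slightly higher shares than cells without Gli1. With each cell thinned to 5000 UMIs, 73.9% of 760 wild-type cells with Gli1 and 68.2% of 2764 cells without Gli1 carried Ptch1, a difference of 5.71 percentage points. For Hhip the shares were 42.9% and 38.1%, a difference of 4.80 percentage points that was 12.7 points at full depth. The library labelled Ddx5 knockout had shares of 76.4% and 70.2% for Ptch1 and 43.2% and 39.0% for Hhip. Cells with and without Gli1 had like full depths (medians of 9803 and 9940 UMIs in wild type), and with 1 UMI or less of Gli1 in most cells such small differences are no more than a description.

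Between the libraries most levels of the Hedgehog genes in the whole somatic gates were within 1.5-fold. In the Sertoli gate 12.4% of 16427 genes, in the myoid gate 8.97% of 13808 and in the stroma gate 9.57% of 17129 were past 1.5-fold in either direction. Of the 7 members 1 was past it in Sertoli cells (Gli1), 0 in the whole myoid gate and 1 in stroma (Dhh), shares near those of all genes. In the Leydig gate, where 11.5% of genes were past 1.5-fold, 5 members had at least 20 UMIs and 0 were. In cells of 1 gate alone 4 of 24 member values in the 4 somatic gates were past it, beside 11.5% of the values of all genes in these cells and 24.1% in the myoid gate alone: Dhh in Leydig cells and in stroma, and Gli3 (20 and 4 UMIs, ratio 0.449, 0.112 to 1.34) and Hhip in myoid cells. The median ratio of the members, labelled knockout over wild type, was 1.09 in Sertoli, 1.12 in myoid, 1.03 in stroma and 0.914 in Leydig cells, beside 0.987, 0.995, 0.996 and 1.001 for all genes.

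Dhh in Sertoli cells was 1.07 times (1.04 to 1.11) as high in the library labelled Ddx5 knockout, and 1.10 times (1.06 to 1.14) in Sertoli cells without Pdgfra. In Leydig cells it was 0.869 times (0.635 to 1.19) as high in the whole gate but 0.580 times (0.348 to 0.946) in the gate alone, with 49 and 27 UMIs. Ptch1 was 1.11 times (1.08 to 1.14) as high in stroma and 1.12 times (1.06 to 1.19) in myoid cells. In Sertoli cells without Pdgfra, Ptch1 was lower, at 0.911 (0.848 to 0.978). Smo differed by 1.09 (1.03 to 1.15) in Sertoli cells and by 1.02 (0.979 to 1.06) in stroma. The intervals of Dhh in the whole Leydig gate and of Smo in stroma include 1 and the others leave it out, but with 1 library per genotype they cannot be told apart from differences between any pair of libraries.

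Hhip in myoid cells showed the widest difference among the levels over 50 CPM in somatic gates, from 95.5 to 139 CPM, a ratio of 1.46 (1.33 to 1.59). In stroma it was 1.06 (1.02 to 1.10), with 1.15 (1.07 to 1.24) in Tbata cells, 0.907 (0.828 to 0.993) in Lum or Dpt cells, 0.981 (0.887 to 1.09) in cells with both and 1.25 (1.17 to 1.34) in cells with neither. Cells with Lum or Dpt alone made up 14.8% of all wild-type cells and 20.2% of those in the other library. In stroma alone the ratio was 0.986 (0.944 to 1.03), and in the myoid gate alone, past 1.5-fold, 2.82 (1.77 to 4.54) with 35 and 44 UMIs. Gli1 in myoid cells was 1.28 times (1.09 to 1.51) as high and in stroma 1.04 times (0.976 to 1.11). Tbata cells gave 1.16 (1.01 to 1.34) for Gli1, and the intervals of the other 3 stroma subsets and of the myoid gate alone included 1.

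The 2 values of whole somatic gates past 1.5-fold were small in level. Gli1 in Sertoli cells rested on 135 and 171 UMIs, 3.65 and 5.91 CPM, a ratio of 1.62 (1.28 to 2.04). In Sertoli cells without Pdgfra it rested on 21 and 24 UMIs, and the ratio was 1.57 (0.836 to 2.96). The summed stroma markers in the Sertoli gate were 929 and 1403 CPM, and called doublets 9.53% and 13.4%. Dhh in stroma rested on 86 and 47 UMIs, 2.21 and 1.42 CPM, a ratio of 0.642 (0.440 to 0.927), and in stroma alone on 62 and 26 UMIs, a ratio of 0.473 (0.287 to 0.758), while the summed Sertoli markers in stroma were 256 and 238 CPM. The part of mixed droplets in either ratio was not tested.

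In the germ gate, with 12 cells in the library labelled Ddx5 knockout, 67.7% of 12394 genes were past 1.5-fold, and so were 4 of 5 members compared. Gli3 had 188 and 4 UMIs in the wild-type and the other library, 43.5 and 8.63 CPM, a ratio of 0.199 (0.0535 to 0.517). With cells of other gates left out it had 117 and 3 UMIs, and the ratio was 0.193 (0.0393 to 0.579). Dhh had 149 and 0 UMIs, and the interval of the ratio ended at 0.234, but the germ gate alone had 6 and 0 UMIs and an interval that ended at 6.4. The summed Sertoli markers in the germ gate were 1449 and 108 CPM. Hhip had 16 and 14 UMIs, a ratio of 8.16 (3.69 to 17.9), and 6 and 5 UMIs in the germ gate alone, a ratio of 6.28 (1.52 to 24.7). The summed stroma markers were 487 and 844 CPM in the germ gate, and 189 and 199 CPM in the germ gate alone. Smo had 120 and 7 UMIs, a ratio of 0.544 (0.214 to 1.16), but 23 and 6 UMIs in the germ gate alone, where the ratio was 1.97 (0.655 to 4.97). The median ratio of all genes in this gate was 0.651.

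**Figure D4:**
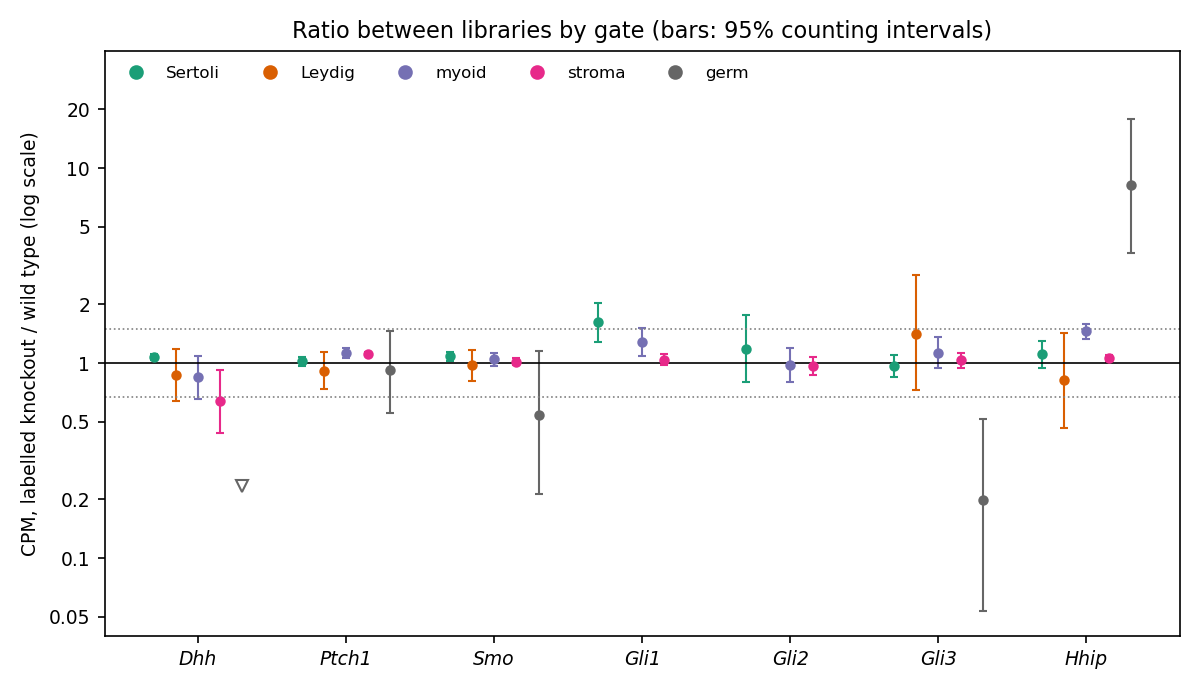
Ratio of CPM in the library labelled Ddx5 knockout to CPM in wild type (y axis, log scale) for each Hedgehog gene (x axis) and gate (colour) with at least 20 UMIs, with exact 95% counting intervals. The solid line marks 1, the dotted lines mark 1.5-fold, and the open triangle is the upper bound for Dhh in germ cells, which had 0 UMIs there. Somatic ratios lie between 0.642 and 1.62, and the germ ratios rest on 12 cells.

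The genes most like each member across 12 profiles (the Sertoli, Leydig and myoid gates and the Tbata and Lum or Dpt cells of the stroma gate in both libraries, the germ gate in wild type and the macrophage gate in the library labelled Ddx5 knockout) were listed by the correlation of log2(CPM + 10) over 13999 genes. The profiles share libraries and in part cells, so the correlations are a description. Dhh was most like Tnni3 (Pearson r 0.996), Sdsl (0.996) and Hspb1 (0.993). Gli1 was most like Igfbp6 (0.997), Thbs2 (0.995) and Pdgfra (0.994), of which Pdgfra defines the stroma gate. Gli2 was most like Pdgfrb (0.997), Tshz3 (0.995) and Gpr153 (0.993).

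Ptch1 was most like Trpm5 (0.986), Hhip (0.985) and Kif13a (0.985), so that another member stood at rank 2 of 13999 genes. Hhip in turn was most like Ngfr (0.99002), Thbd (0.989) and Sorcs2 (0.989), with Ptch1 at rank 10 and Gli1 at rank 14. Smo was most like Vstm4 (0.993), Dock1 (0.993) and Gm10855 (0.989), and Gli3 most like Zfp770 (0.992), Slc44a1 (0.988) and Phldb1 (0.982). Ptch1, Gli1, Gli2 and Hhip correlated with each other at 0.928 to 0.985, and Dhh correlated negatively with each of them (-0.618 with Ptch1 and -0.749 with Gli1).

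A wider list of 37 further pathway genes was read in the same way, 33 of them with at least 20 UMIs over the 5 gates of wild type. Of these, 10 had a highest gate over 2-fold above the next, beside the 29.2% of all genes, and 4 of the 10 reached 30 CPM there. The second ligand of note was Shh, Sonic hedgehog, which in wild type had 34 UMIs in Leydig cells (11.3 CPM, 7.82 to 15.8 CPM), 12.2 times (4.35 to 47.3) the germ gate. Ihh had 7 UMIs in the wild-type cells of the 5 gates.

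Of the co-receptors, Cdon and Boc were highest in Leydig cells and Gas1 in stroma. Cdon stood at 288 CPM (269 to 308 CPM) in Leydig cells, 9.75 times (8.92 to 10.7) the stroma level, and at 309 CPM in the library labelled Ddx5 knockout. Boc stood at 52.5 CPM there, 1.61 times (1.36 to 1.90) stroma. Gas1 stood at 201 CPM in stroma, 115 CPM in myoid cells and 27.6 CPM in Leydig cells.

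Of 17 genes that act in transduction, among them Sufu, the cilium gene Arl13b and the kinase subunit Prkaca, 1 was over 2-fold above its next gate, below 30 CPM. Of 9 listed targets 3 passed both limits. Nr5a1, which encodes steroidogenic factor 1, stood at 306 CPM in Leydig cells, 3.63 times (3.37 to 3.91) the Sertoli level. Ccnd1, cyclin D1, at 123 CPM and Foxf1, a forkhead factor, at 34.9 CPM were germ-cell genes here, 20.5 and 25.3 times the next gate, and Foxf1 stood at 0.693 CPM in stroma, where Gli1 and Ptch1 were high.

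Between the libraries, 32 of the 37 genes could be compared in their highest gate and 7 were past 1.5-fold, 6 of them among 8 compared in the germ gate with its 12 cells, where 67.7% of all genes were past it. Ccnd1 had 532 and 6 UMIs there, Foxf1 151 and 0, Ift88 118 and 1, Grk2 146 and 9, Scube3 37 and 19, and Foxd1 22 and 5 UMIs, so Scube3 and Foxd1 were higher and the other 4 lower in CPM in the library labelled Ddx5 knockout. The 1 outside germ cells was Shh in Leydig cells, at 11.3 and 19.1 CPM with 34 and 55 UMIs, a ratio of 1.69 (1.09 to 2.68), beside 11.5% of all genes past 1.5-fold in that gate.

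**Figure D5:**
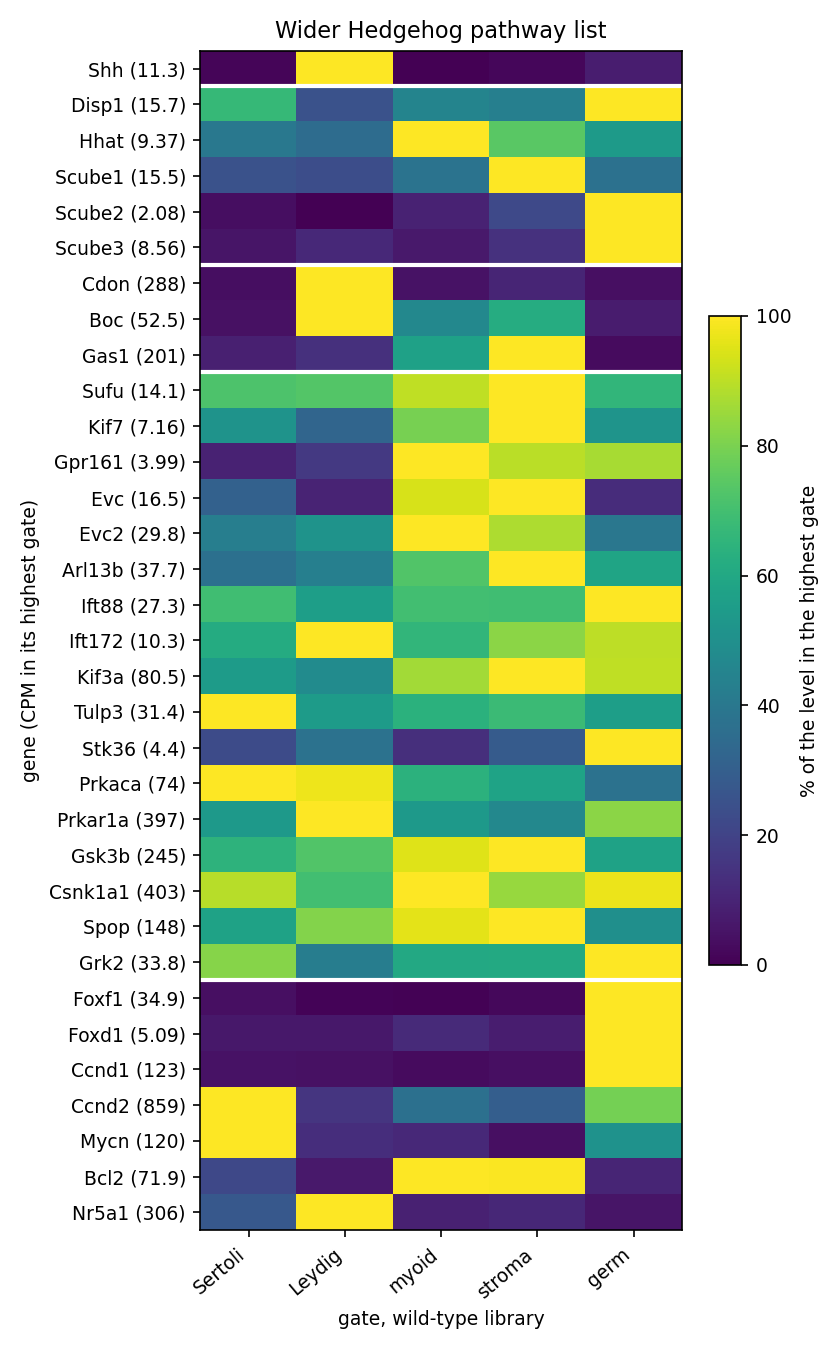
Level of the genes of the wider list with at least 20 UMIs in each gate of the wild-type library (x axis), as a percent of the level in the gene's own highest gate (colour), by role from ligand to target (y axis, white lines between roles, CPM in the highest gate in brackets). Shh, Cdon, Boc and Nr5a1 peak in Leydig cells, Gas1 in stroma, and Foxf1 and Ccnd1 in germ cells.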

How the data were processed

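Per the labels, reads of the Chromium 3′ v3 libraries were processed by the authors with Cell Ranger 3.1.0 (build GRCm38) and Seurat 3.1.5, with GFP and CRE sequences included beside the mouse genes. The deposited table holds raw UMI counts per gene and barcode, not normalized and before the filter on cells. UMIs were summed over the cells of each gate and library and scaled to CPM. The wild-type library summed to 84263163 UMIs and the other to 67558106, which sets the precision: over a whole gate 3 UMIs are 0.0812 CPM in wild-type Sertoli cells but 6.48 CPM in the germ gate of the library labelled Ddx5 knockout. Levels have exact Poisson, shares exact Clopper-Pearson and ratios exact conditional binomial intervals at 95%. The intervals of ratios treat both counts as independent, which does not hold for whole gates that share cells, such as stroma and myoid. No test was run, since each genotype is 1 library. Doublets were called with Scrublet in scanpy 1.11.5. Python 3.11.15, numpy 2.4.6 and scipy 1.17.1 were used, and ratio and interval were tested on simulated counts.

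All 7 members were named. From the wider list, genes were named when over 2-fold in 1 gate at 30 CPM or more, or past 1.5-fold between libraries with at least 20 UMIs, and 3 most like genes were named per member. Boc, Gas1, Shh, Ihh and the transduction genes named as examples were added after their values were seen. Some genes of these lists are not reported here. Members, gates and lists were chosen with earlier results of these data known. Alternatives changed the gates, the cell filter, doublets, the scaling and the depth. Cells without Pdgfra or Amh were set apart after the data were seen.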

Additional observations from a re-analysis of the deposited data

Results flagged for a closer look

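Dhh differed between the libraries in opposite directions by gate, a difference that was not tested. The ratio of the library labelled Ddx5 knockout to wild type was 1.07 in Sertoli cells, 0.642 in stroma and 0.0 in germ cells, where that library had 0 Dhh UMIs in 12 cells and the interval of the ratio ended at 0.234. Most of the 149 wild-type Dhh UMIs of the germ gate were in cells that also met another gate: the germ gate alone had 6 and 0 UMIs, and its interval ran from 0.0 to 6.4.

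The members were also found in the 434 wild-type barcodes outside the cell filter, which the comparisons do not use, each above the level that 3 UMIs make there (2.23 CPM). Dhh stood at 39.4 CPM, Ptch1 at 154 CPM, Smo at 78.7 CPM, Gli1 at 24.5 CPM, Gli2 at 9.66 CPM, Gli3 at 26.7 CPM and Hhip at 37.1 CPM.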

How the results depend on the processing

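Of the 152 values of the main results under alternatives, 134 stayed within their counting interval or within 1.5 times the count. Cells of a gate alone changed the most. Dhh in Sertoli over germ cells, 5.95, became 79.1, the ratio of stroma to myoid cells became 1.30 for Gli1, 2.39 for Hhip and 1.23 for Smo, that of myoid to stroma for Gli2 became 1.66, and Hhip between libraries in stroma turned from 1.06 to 0.986. The count of members over 2-fold in 1 gate went from 1 to 2 (29.2% to 34.1% of all genes), and that past 1.5-fold between libraries, germ cells left out, from 2 to 4 (10.6% to 11.5% of the values of all genes). Stricter gates gave 1.56 for Hhip and 1.22 for Ptch1 in stroma over myoid cells. A limit of 3000 genes and 5% mitochondrial UMIs gave 3.78 for Dhh in Sertoli over germ cells, 1.29 for Gli3 in germ over myoid cells and 4 member values past 1.5-fold between libraries (11.1% of all genes). Adding 10 CPM gave 4.84 for Dhh and a count of 0 (0.466% of all genes), thinning to 5000 UMIs gave 7.70 and a count of 6 (10.2% of all genes), and the mean of each cell's CPM gave 7.29. The Sertoli levels of Gli1 and Hhip fell to 0.668 and 1.08 CPM without called doublets, and Ptch1 there to 64.4 CPM. Dhh in the Leydig gate ranged from 21.7 to 39.8 CPM. At full depth, cells with Gli1 carried Hhip more often by 12.7 percentage points in stroma, against 4.80 when thinned. No paired analysis was possible because the barcodes carry no replicate number, and for the same reason no replicate could be left out. The number of cells limits the germ gate and the myoid cells without Pdgfra of the library labelled Ddx5 knockout: 3 UMIs are 6.48 CPM in its 12 germ cells, 10.1 CPM in the 8 of the germ gate alone and 12.0 CPM in its 25 myoid cells without Pdgfra.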
